A study of Mus musculus with 19 samples.

Results

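The xenobiotic metabolism enzyme genes encode the enzymes that oxidize, reduce, hydrolyse or conjugate drugs, toxins and related molecules made by the body. They were chosen by gene symbol: cytochrome P450 genes of the families Cyp1 to Cyp4 except Cyp2f2, which is counted here among the club cell markers, the flavin monooxygenase genes Fmo1 to Fmo5, the Ces1 and Ces2 carboxylesterases, the Akr1 aldo-keto reductases, the Aldh1a and Aldh3a aldehyde dehydrogenases, the soluble glutathione S-transferases (Gst), and the Ugt1 and Ugt2 glucuronosyltransferases. The rule itself uses no measured value, though it was set with earlier results of these data known. The rule found 156 symbols, 154 among the 51912 rows of the table of non-small cell lung cancer (NSCLC) and normal lung and 153 among the 24421 rows of the table of resistant and sensitive NSCLC. Both tables held 151 of them. Cyp2c23 in the first table and Cyp2c44 in the second are names of the same gene.

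These enzymes work in steps. Phase I enzymes add or uncover a reactive group: cytochrome P450s and flavin monooxygenases insert oxygen, carboxylesterases split esters, and aldo-keto reductases and aldehyde dehydrogenases convert aldehydes and ketones. Phase II enzymes then attach glutathione or glucuronic acid, which makes the product soluble enough to leave the cell. The liver holds most of this capacity, and in the lung it is best known from club cells and alveolar type 2 cells. Several of the same enzymes act on the body's own steroids, retinoids and lipids, among them the Aldh1a enzymes, which make retinoic acid.

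RNA was sequenced in bulk from 19 libraries of mouse organoids, which are 3-dimensional cell cultures. The groups were NSCLC (n = 4) with normal lung (n = 3), and NSCLC labelled resistant to immunotherapy (n = 9) with NSCLC labelled sensitive to it (n = 3). The series title names acquired resistance to immunotherapy as its subject. Strain, genotype, age and the therapy itself are not given in the labels. Whether the libraries of a group stem from different mice or cultures is not said there, so each p-value speaks of the spread among these libraries, which may be a technical one. Since the samples are bulk, fewer cells of a type and less RNA per cell cannot be told apart.

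Libraries held 122967042 to 154479953 counts in NSCLC and 20138197 to 21060762 in normal, and 11988677 to 24462955 in resistant and 15292427 to 18716749 in sensitive. The enzyme genes took 0.350% to 0.559% of the counts of an NSCLC library and 0.321% to 0.399% of a normal one, and 0.144% to 0.239% of a resistant library and 0.242% to 0.319% of a sensitive one. Markers of several cell types differed between the groups as well. Of all genes tested, 28.5% were higher and 25.0% lower in NSCLC, and 19.3% were higher and 18.2% lower in resistant organoids. A marker count near these shares is not particular to the markers. In NSCLC, markers of alveolar type 1 cells were lower for 5 of 6 tested, of alveolar type 2 cells for 8 of 9, of ciliated cells for 5 of 6, of endothelium for 3 of 4 and of fibroblasts for 11 of 12, with 0 higher in each, while epithelial markers were higher for 7 of 8, hepatocyte markers for 5 of 6 and intestinal markers for 6 of 6, with 0 lower. Club cell markers were higher for 1 and lower for 4 of 7 there, and macrophage markers higher for 2 and lower for 8 of 11. In resistant organoids, markers were lower for 6 of 9 of alveolar type 2 cells, 3 of 6 of club cells, 4 of 8 of epithelium, 2 of 7 of hepatocytes and 6 of 11 of macrophages, with 0 higher, while 8 of 9 fibroblast markers were higher and 0 lower. Markers of alveolar type 1 and ciliated cells were each higher for 1 and lower for 1, of 6 and 3 tested, and of 4 endothelial and 4 intestinal markers 0 were called (adjusted p, edgeR quasi-likelihood test). The 8 epithelial markers summed to between 9450.0 and 14520.0 counts per 1000000 (CPM) in NSCLC libraries and between 2111 and 2526 CPM in normal ones. The 12 fibroblast markers summed to between 0.329 and 0.707 CPM in NSCLC, where Lum, Dpt, Postn and Tcf21 had 0 counts, and to between 78.1 and 440.4 CPM in normal, highest in normal library 2. Markers of hepatocytes (8 measured) summed to between 22.5 and 1844 CPM in NSCLC and between 0.527 and 1.40 CPM in normal libraries, where Ttr, Serpina1a and Fgb had 0 counts. In the resistant libraries the epithelial markers summed to at most 1024 CPM in libraries 1 to 7, to 1997 CPM in library 8 and to 2433 CPM in library 9, against 5440.0 to 7144 CPM in the sensitive libraries. Fibroblast markers ran the other way there, at 68.5 to 995 CPM in resistant and 13.8 to 37.9 CPM in sensitive libraries. Xist, which marks the inactive X chromosome of female cells, had 7 to 26 counts in NSCLC libraries and 13706 to 15163 in normal ones, so its loss or the sex of the mice cannot be told apart from the group in that pair. The part of these differences in the results on the enzyme genes was not tested.

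In NSCLC organoids the enzyme genes went in both directions. Carboxylesterases and flavin monooxygenases were lower, several glutathione S-transferases of the mu and pi classes and several Akr1c genes were higher, and the P450s held members of both kinds. Of the 154 members there 25 had no counts and 79 passed the filter on low counts. At an adjusted p under 0.05 in edgeR's quasi-likelihood test, 25 of the 79 were higher and 27 lower, which is 65.8%. Among all 19932 genes tested 53.5% were called, 28.5% higher and 25.0% lower. Groups did not overlap for 52 of the 79 members, against 59.4% of all genes tested. The median log2 fold change was 0.10 over the tested members and 0.11 over all genes tested. The 75 members not tested had at most 130 counts each over the 7 libraries. Thinning the NSCLC libraries to the depth of the normal ones left 45 of the 52 calls, and 4 of the 7 lost had no test there because they did not pass the filter. Normal library 2 held the highest normal value of 15 of the 27 members that fell and of 13 of the 25 that rose. The share over all genes was not counted. That library had the highest normal sums of fibroblast, macrophage, alveolar type 2, ciliated and endothelial markers, and not of the other marker lists.

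**Figure D1:**
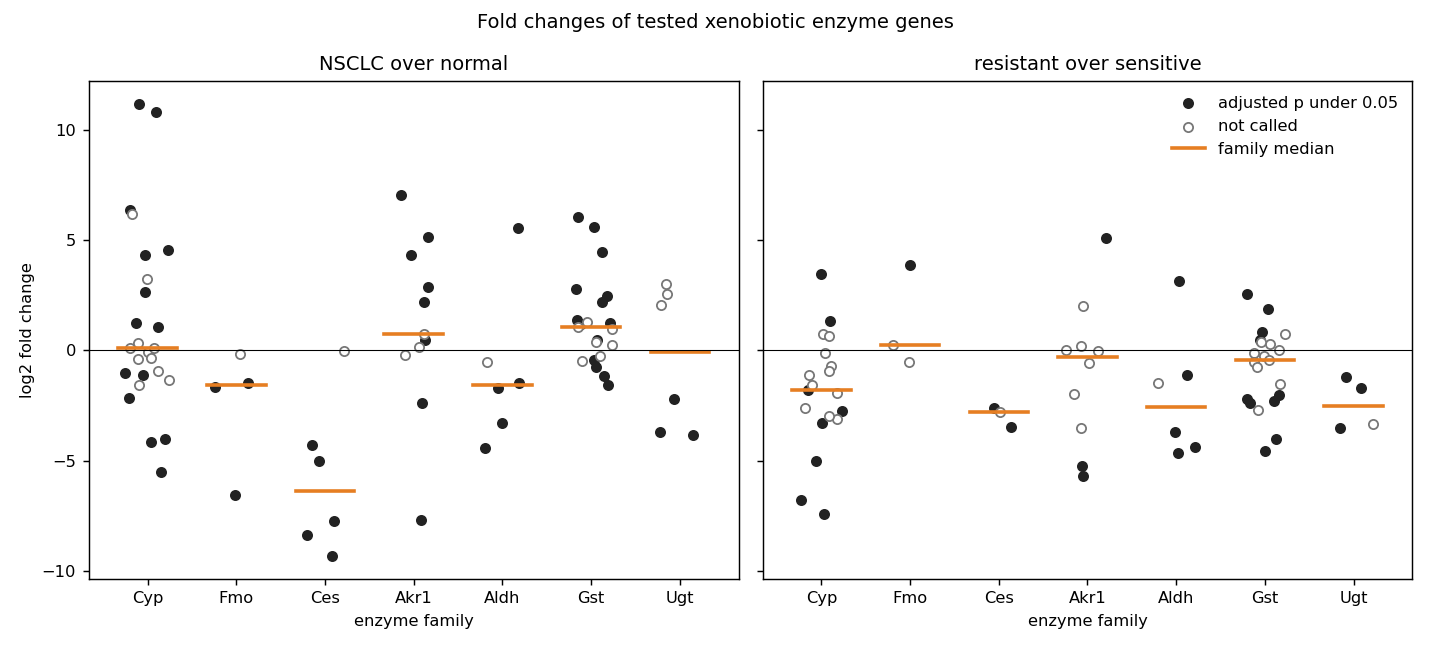
Log2 fold change (vertical axis) of each tested member by enzyme family, NSCLC over normal at left (79 genes) and resistant over sensitive at right (66 genes). Filled points passed an adjusted p of 0.05, open points did not, and bars are family medians. In NSCLC the carboxylesterases had a median of -6.37 and the Gst genes one of 1.06, while in resistant organoids the Ces median was -2.80 and the Gst median -0.44.

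The carboxylesterases, which hydrolyse ester drugs and cell lipids, had the largest fold difference of the 7 families in summed level. The sum over the Ces1 and Ces2 genes was 2.05 ± 0.79 CPM in NSCLC and 391.9 ± 69.5 CPM in normal organoids (SD, n = 4 and 3). Of 6 tested members 5 fell and 0 rose. Most of the sum came from Ces1d, a lipid ester hydrolase gene on chromosome 8 (93166068 to 93197838, mm10, minus strand). Ces1d had 2.70, 1.14, 1.39 and 1.49 CPM in the NSCLC libraries, against 281.6, 389.7 and 389.2 CPM in the normal ones. All NSCLC libraries were low and the groups were far apart, with a log2 fold change of -7.72 ± 0.36 (SE; adjusted p = 3.84e-06, edgeR quasi-likelihood test). Its neighbours Ces1f and Ces1g, from 93256236 to 93279747 and from 93302369 to 93337308 on the same strand, showed the same split. Ces1f averaged 0.0457 ± 0.0152 CPM in NSCLC and 15.3 ± 7.60 CPM in normal (log2 fold change -8.36 ± 0.51, adjusted p = 9.26e-06), and Ces1g averaged 0.0280 ± 0.0364 and 18.2 ± 10.7 CPM (-9.33 ± 0.94, adjusted p = 1.11e-04). Ces1e and Ces2g fell too, by 5.02 and 4.28 on the log2 scale, and Ces2g no longer passed the filter on low counts after thinning. Ces2c, at 0.120 CPM in NSCLC and 0.125 CPM in normal, was the tested member that did not pass. Normal library 2, where fibroblast and several other marker sums were highest, also had the highest Ces1f and Ces1g, and without it the Ces1d call held.

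Flavin monooxygenases, which oxidize nitrogen and sulfur in drugs, summed to 2.23 ± 0.38 CPM in NSCLC and 21.3 ± 8.43 CPM in normal. Fmo2, the main form of the lung in many mammals, had 0.0964, 0.181, 0.141 and 0.230 CPM in the NSCLC libraries, against 23.6, 13.5 and 8.87 CPM in the normal ones. No NSCLC library came near the lowest normal library (log2 fold change -6.54 ± 0.47, adjusted p = 1.99e-05). Fmo5 and Fmo4 fell (log2 fold changes -1.66 and -1.499), and the Fmo4 call was lost without any 1 of the normal libraries (adjusted p = 0.0592 to 0.0729) and without NSCLC library 2 (0.0512). Fmo1 averaged 0.211 CPM in NSCLC and 0.238 CPM in normal and was not called (adjusted p = 0.845). Its direction turned without normal library 2 (log2 fold change 1.14, adjusted p = 0.263).

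Among the cytochrome P450s 8 of 25 tested genes rose in NSCLC and 6 fell. Their summed level was 512.8 ± 136 CPM in NSCLC and 197.8 ± 30.4 CPM in normal, and most of the NSCLC sum came from Cyp2s1. Cyp2s1, an epithelial P450 of skin and airway that acts on retinoids and lipid peroxides, had 315, 459, 454 and 125 CPM in the NSCLC libraries, against 49.9, 19.7 and 91.1 CPM in the normal ones. The lowest NSCLC library stood above the highest normal one, and the log2 fold change was 2.66 ± 0.62 (adjusted p = 0.00723). Cyp1b1, which oxidizes polycyclic hydrocarbons and oestrogens, averaged 61.3 ± 25.6 CPM in NSCLC and 25.9 ± 7.43 CPM in normal (1.24 ± 0.36, adjusted p = 0.0194). It missed the threshold without normal library 1 (adjusted p = 0.062) or 3 (0.0755). Cyp1a1, the related gene best known for induction by smoke hydrocarbons, went the other way at a low level, with 0.197 ± 0.1301 CPM in NSCLC and 0.895 ± 0.170 CPM in normal (-2.18 ± 0.69, adjusted p = 0.0289). The Cyp1a1 call did not hold without any 1 normal library or without NSCLC library 2 (adjusted p = 0.0535 to 0.0842).

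The Cyp3a and Cyp4f genes that rose had very low levels in normal organoids. Cyp3a13, a drug oxidase of gut and liver, had 1.85, 9.71, 4.31 and 9.48 CPM in the NSCLC libraries, against 0.280, 0.308 and 0.231 CPM in the normal ones. Each NSCLC library was above all normal libraries (log2 fold change 4.53 ± 0.69, adjusted p = 9.17e-04). Cyp4f14, an oxidase of leukotrienes and long fatty acids that is abundant in mouse liver, had 2.76, 31.1, 13.6 and 70.3 CPM in the NSCLC libraries, against 0, 0.0439 and 0 CPM in the normal ones. The order of the NSCLC libraries was that of the summed hepatocyte markers, which summed to 22.5, 1142, 610.2 and 1844 CPM in the same libraries. The log2 fold change of Cyp4f14 was 10.79 ± 1.75 (adjusted p = 0.00126). Cyp2d26, a gene of the drug-oxidizing Cyp2d group, had the same order at 0.161, 2.51, 1.001 and 6.66 CPM and averaged 0.0311 CPM in normal (6.34 ± 1.67, adjusted p = 0.013), and missed the threshold without normal library 3 (0.0513). Cyp3a13, highest in NSCLC library 2, Cyp4f40, highest in library 1, and Cyp2c23, at 0.924, 0.591, 2.16 and 2.55 CPM, did not have that order. A link to the hepatocyte markers was not tested. Cyp4f40 had 4.98, 3.87, 0.836 and 3.80 CPM in NSCLC and 0 counts in all 3 normal libraries, and was at least 24.0-fold higher when set against a floor of 3 counts in the shallowest normal library. Cyp2c23 rose by 4.32 and Cyp2u1 by 1.07 on the log2 scale, and without normal library 1 the fitted value of Cyp2c23 was 10.24. All normal counts of Cyp2c23 (5) and Cyp2d26 (2) were in normal library 1, so the value of Cyp2c23 without that library is set against 0 counts and depends on the prior count. With so few normal counts the fitted fold changes of Cyp2d26 and of Cyp4f14, which had 1, rest on the prior count of the fit. The plain ratios of CPM were 89.9 for Cyp2d26 (exact 95% interval 24.9 to 743) and 2050.0 for Cyp4f14 (367 to 80800), intervals that cover counting error only. The Cyp2u1 call was lost in 6 of the 7 fits that left out 1 library, all but the one without NSCLC library 3 (adjusted p up to 0.144).

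Of the P450s that fell, Cyp4v3 had the smallest adjusted p. This fatty acid hydroxylase gene on chromosome 8 (45304944 to 45333216) averaged 1.77 ± 0.77 CPM in NSCLC and 28.4 ± 3.21 CPM in normal (log2 fold change -4.002 ± 0.37, adjusted p = 6.88e-05). Cyp2b10, the classic target of the drug-sensing receptor CAR, had 0.313, 0.363, 1.66 and 1.56 CPM in the NSCLC libraries, against 22.8, 11.7 and 17.6 CPM in the normal ones. Groups were apart (-4.16 ± 0.66, adjusted p = 0.00118). Cyp2a5 fell by 5.54, Cyp2j6 by 1.10 and Cyp4f17 by 1.04 on the log2 scale, and Cyp2a5 no longer passed the filter on low counts after thinning. The Cyp2j6 call was lost without normal library 1 or 2, and the Cyp4f17 call without normal library 1 (adjusted p = 0.0741, 0.0735 and 0.0556). Cyp4b1, a lung P450 that activates plant toxins, had 4.38 ± 2.82 CPM in NSCLC and 5.70 ± 2.31 CPM in normal and was not called. Cyp2e1, the ethanol-oxidizing form, had 6 counts over all NSCLC libraries and 0 over the normal ones and was not tested.

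**Figure D2:**
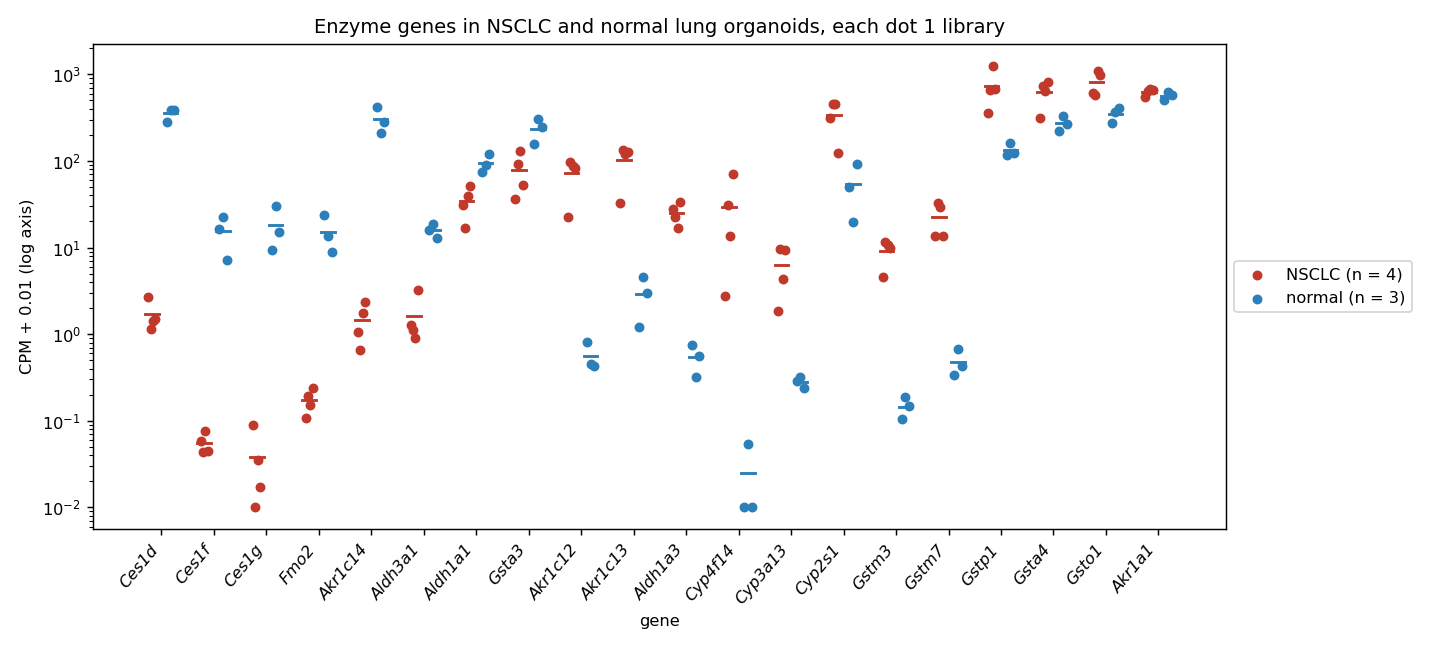
CPM + 0.01 (vertical log axis) of 20 enzyme genes in each of 4 NSCLC libraries (red, left of each pair) and 3 normal libraries (blue, right), with bars at the group means. For Ces1d, Fmo2 and Akr1c14 the red points lie far below the blue ones, for Akr1c12, Aldh1a3 and Gstm3 far above, and for Akr1a1 the groups overlap.

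The aldo-keto reductases showed 6 of 11 tested genes higher and 2 lower in NSCLC, with nearly level sums of 1188 ± 179 CPM in NSCLC and 1044 ± 24.3 CPM in normal. The opposed changes sat within 1 cluster on chromosome 13, where 8 Akr1c genes lie between 4049011 and 4586541. Akr1c12 and Akr1c13 encode hydroxysteroid and aldehyde reductases, and Akr1c14 encodes a 3-alpha-hydroxysteroid dehydrogenase. Akr1c12 had 22.4, 97.9, 88.1 and 82.1 CPM in the NSCLC libraries, against 0.794, 0.439 and 0.416 CPM in the normal ones. Akr1c13 had 32.7, 135, 119 and 126 CPM in NSCLC, against 1.22, 4.57 and 3.003 CPM in normal. For both, NSCLC library 1 was the lowest of its group and still above all normal libraries, with log2 fold changes of 7.05 ± 0.65 (adjusted p = 7.2e-05) and 5.14 ± 0.66 (adjusted p = 3.93e-04).

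Akr1c14 ran the opposite way. It had 1.04, 0.638, 1.76 and 2.35 CPM in the NSCLC libraries, against 419.7, 211 and 281 CPM in the normal ones. The log2 fold change was -7.71 ± 0.53 (adjusted p = 1.58e-05), and per length it was among the 5 most abundant enzyme genes of normal organoids at 93.8 CPM per kilobase. The start regions of these genes are shown because neighbours in 1 cluster moved in opposite directions. Each runs 5′ to 3′ in the gene's direction from 250 bases before to 50 after the start given by RefSeq (GRCm38.p6, the assembly of mm10). In Akr1c12 (chr13:4279350-4279649, minus strand) and Akr1c13 (chr13:4190937-4191236, plus strand) capitals mark bases that differ between both or face a gap. An alignment of these windows had 284 identities, 12 mismatches and 8 gapped positions, which is 95.9% identity over aligned bases, while Akr1c12 and Akr1c14 reached 63.8%. In Akr1c14 (chr13:4059341-4059640, plus strand) capitals mark GCGTG, the core bound by the aryl hydrocarbon receptor, which neither of the others holds on either strand. That core stands in 32.4% of all 32851 windows of the table and in 18.2% of the 148 member windows, both strands searched, so a match is common.
Akr1c12: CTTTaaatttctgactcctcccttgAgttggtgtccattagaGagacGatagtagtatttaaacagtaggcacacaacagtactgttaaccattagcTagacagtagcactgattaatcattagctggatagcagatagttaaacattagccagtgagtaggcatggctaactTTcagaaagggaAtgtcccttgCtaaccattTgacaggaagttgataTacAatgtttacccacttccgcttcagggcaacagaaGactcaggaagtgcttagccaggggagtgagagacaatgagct
Akr1c13: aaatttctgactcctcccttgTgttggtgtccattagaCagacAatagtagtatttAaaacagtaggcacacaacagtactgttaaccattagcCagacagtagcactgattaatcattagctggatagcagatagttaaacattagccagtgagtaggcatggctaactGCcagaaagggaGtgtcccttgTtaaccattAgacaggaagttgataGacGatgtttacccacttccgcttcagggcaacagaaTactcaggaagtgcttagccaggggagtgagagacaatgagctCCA
Akr1c14: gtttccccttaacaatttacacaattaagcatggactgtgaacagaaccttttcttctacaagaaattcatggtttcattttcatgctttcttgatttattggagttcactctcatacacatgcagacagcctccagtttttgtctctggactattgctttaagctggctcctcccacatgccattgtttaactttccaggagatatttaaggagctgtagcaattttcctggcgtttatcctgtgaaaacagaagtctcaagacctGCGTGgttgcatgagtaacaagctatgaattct

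The near identity of Akr1c12 and Akr1c13 extends to their transcripts, where 28.6% of the 50-base windows of Akr1c12 also occur in Akr1c13. How the authors' counting split such reads is not given in the sources used here, so the values of each of the pair are uncertain. The same limit holds for other members: 56 of 154 had over 10% of their windows in transcripts of other genes. Among them were Cyp2a5 (37.0%), Gstm3 (28.8%) and Gstm1 (18.9%). Of the other Akr1 genes, Akr1c19, Akr1c21 and Akr1e1 rose by 2.87, 4.31 and 0.46 on the log2 scale. The Akr1e1 call was lost under upper quartile scaling and in 4 of the 7 fits that left out 1 library (normal 2 or 3, NSCLC 1 or 2; adjusted p = 0.0732 to 0.0935). Akr1b3, mouse aldose reductase, which reduces glucose to sorbitol, averaged 113 ± 39.4 CPM in NSCLC and 24.7 ± 3.66 CPM in normal (2.19 ± 0.27, adjusted p = 3.41e-04). Akr1c18, which inactivates progesterone, fell by 2.38, a call lost in 4 of the fits without 1 library (normal 2 or 3, NSCLC 2 or 4; adjusted p = 0.051 to 0.114). Akr1a1, an aldehyde reductase present in most tissues, had 628.5 ± 57.7 CPM in NSCLC and 568.7 ± 62.4 CPM in normal and was not called, and per length it was the second enzyme gene of normal organoids at 207 CPM per kilobase. Akr1b8 had 166 ± 87.9 and 100.5 ± 8.58 CPM and was not called either (adjusted p = 0.122).

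The aldehyde dehydrogenases that make retinoic acid changed in opposite directions. Aldh1a3 had 28.1, 22.4, 16.9 and 33.8 CPM in the NSCLC libraries, against 0.748, 0.308 and 0.554 CPM in the normal ones. Groups were well apart (log2 fold change 5.56 ± 0.40, adjusted p = 2.04e-05). The other retinal dehydrogenases fell: Aldh1a1 averaged 34.5 ± 14.7 CPM in NSCLC and 95.1 ± 23.9 CPM in normal (-1.46 ± 0.35, adjusted p = 0.00842), and Aldh1a2 averaged 0.285 ± 0.208 and 6.10 ± 5.99 CPM (-4.41 ± 0.96, adjusted p = 0.00524). Normal library 2, where fibroblast and several other marker sums were highest, held 13.01 CPM of Aldh1a2, against 2.34 and 2.96 CPM in the other normal libraries. Aldh1a7, the mouse copy beside Aldh1a1, fell by 1.72 on the log2 scale, and it missed the threshold without normal library 3 (adjusted p = 0.0601). Aldh3a1, which clears aldehydes from lipid peroxidation in cornea and stomach, averaged 1.63 ± 1.09 CPM in NSCLC and 15.8 ± 3.03 CPM in normal (-3.28 ± 0.47, adjusted p = 6.54e-04). Aldh3a2, the fatty aldehyde dehydrogenase, had 38.9 to 106 CPM in NSCLC and 107.5 to 111 CPM in normal, without overlap but not called (adjusted p = 0.158).

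Glutathione S-transferases summed to 2994 ± 923 CPM in NSCLC and 1415 ± 273 CPM in normal. Of 21 tested genes 10 rose and 4 fell. All risers belonged to the mu, pi, omega, alpha or theta classes, and 5 of the 7 mu genes on chromosome 3 (Gstm3 to Gstm7) were among them. Gstm3 had 4.62, 11.7, 10.8 and 9.76 CPM in the NSCLC libraries, against 0.0934, 0.176 and 0.139 CPM in the normal ones (log2 fold change 6.06 ± 0.49, adjusted p = 3.63e-05). Gstm5 averaged 23.1 ± 3.93 CPM in NSCLC and 4.99 ± 0.555 CPM in normal (2.21 ± 0.20, adjusted p = 6.58e-05). Gstm7, Gstm6 and Gstm4 rose by 5.57, 4.47 and 1.36 on the log2 scale. Gstm1 had 115 to 281 CPM in NSCLC and 42.7 to 135 CPM in normal and did not pass (1.27 ± 0.47, adjusted p = 0.0503).

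Gstp1, the pi-class enzyme abundant in many tumours, had 362, 652, 1246 and 684 CPM in the NSCLC libraries, against 117, 161 and 123 CPM in the normal ones. The groups did not overlap, and the log2 fold change was 2.46 ± 0.40 (adjusted p = 0.00135). Gstp2, its neighbour, rose by 2.79 ± 0.44 (adjusted p = 0.00113). Their start regions on chromosome 19 are shown because both genes were higher in NSCLC and in resistant organoids, described later. In Gstp1 (chr19:4037863-4038162, minus strand) and Gstp2 (chr19:4042172-4042471, minus strand) capitals mark TGANTCA, the site of AP-1 factors, where N is any base. Both hold it, and the windows were 86.2% identical over aligned bases. In both, GC follows the marked letters, which gives TGAGTCAGC. The search for the NRF2 letters TGACNNNGC, given later, does not cover this stretch, so a site of NRF2 there was not tested. TGANTCA stands in 7.81% of all 32851 windows and in 10.8% of the 148 member windows.
Gstp1: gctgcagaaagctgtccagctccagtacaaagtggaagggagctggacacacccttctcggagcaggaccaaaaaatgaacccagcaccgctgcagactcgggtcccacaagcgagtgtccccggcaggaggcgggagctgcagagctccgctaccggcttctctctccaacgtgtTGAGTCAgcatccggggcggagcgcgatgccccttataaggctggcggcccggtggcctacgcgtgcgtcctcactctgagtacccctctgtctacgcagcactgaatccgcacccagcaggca
Gstp2: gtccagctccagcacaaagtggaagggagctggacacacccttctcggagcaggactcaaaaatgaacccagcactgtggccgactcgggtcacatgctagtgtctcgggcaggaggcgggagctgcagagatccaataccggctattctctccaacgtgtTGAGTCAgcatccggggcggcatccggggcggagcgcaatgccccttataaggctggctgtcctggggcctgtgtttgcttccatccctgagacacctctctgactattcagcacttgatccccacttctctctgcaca

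Of the 50-base windows in transcripts of Gstp1 33.7% also occur in Gstp2, and 49.1% of those of Gstp2 in Gstp1, so the split of reads between the pair is uncertain. Gsto1, an omega-class enzyme that reduces arsenic compounds and dehydroascorbate, averaged 814.8 ± 256 CPM in NSCLC and 350.5 ± 68.9 CPM in normal (1.22 ± 0.28, adjusted p = 0.00699). Gsta4, which conjugates the lipid peroxidation product 4-hydroxynonenal, averaged 625 ± 219 CPM in NSCLC and 272.5 ± 56.8 CPM in normal, with overlap, and rose (1.20 ± 0.33, adjusted p = 0.0148). It missed the threshold without normal library 1 or 3 (adjusted p = 0.0598 and 0.0542). Per length Gsta4 was the most abundant enzyme gene of both groups, at 494 CPM per kilobase in NSCLC and 215 in normal. Gstt1 rose by only 0.46 ± 0.16 (adjusted p = 0.041), a call lost in 6 of the 7 fits without 1 library, all but the one without NSCLC library 4 (up to 0.133), and under DESeq2. The 4 genes that fell were Gsta3, Gstz1, Gstt2 and Gstk1. Gsta3, of the alpha class, averaged 78.2 ± 42.6 CPM in NSCLC and 235 ± 73.2 CPM in normal (-1.59 ± 0.43, adjusted p = 0.0147). Gstz1, an enzyme of tyrosine breakdown, fell by 1.15 ± 0.17 (adjusted p = 8.76e-04) and Gstt2 by 0.76 ± 0.20 (adjusted p = 0.0125). The Gstk1 call (log2 fold change -0.43) was lost without any 1 normal library and without NSCLC library 2 or 4 (adjusted p = 0.067 to 0.202).

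Glucuronosyltransferases were scarce in both groups, at 6.57 ± 4.17 CPM in NSCLC and 6.18 ± 1.94 CPM in normal. The Ugt1a genes share their last exons on chromosome 1 (88055388 to 88220002), and their reads can be told apart only in part: 79.8% of the 50-base windows of Ugt1a6b, 52.1% of those of Ugt1a6a and 53.7% of those of Ugt1a7c occur in other transcripts. All of these 3 genes fell. Ugt1a6a averaged 0.0424 ± 0.0352 CPM in NSCLC and 0.628 ± 0.455 CPM in normal (-3.82 ± 0.73, adjusted p = 0.00286), and Ugt1a6b fell by 3.72 ± 0.97 (adjusted p = 0.0124). Ugt1a7c averaged 0.802 ± 0.644 and 3.68 ± 1.22 CPM (-2.20 ± 0.71, adjusted p = 0.0296), and missed the threshold without any 1 normal library or NSCLC library 4 (adjusted p = 0.0525 to 0.0866). Ugt1a6a and Ugt1a6b no longer passed the filter on low counts once NSCLC libraries were thinned to normal depth, and so were not tested there. Ugt2b34 had 4.84 ± 3.33 CPM in NSCLC and 0.607 ± 1.05 CPM in normal, where all counts were in library 1, and was not called (adjusted p = 0.0998).

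**Figure D3:**
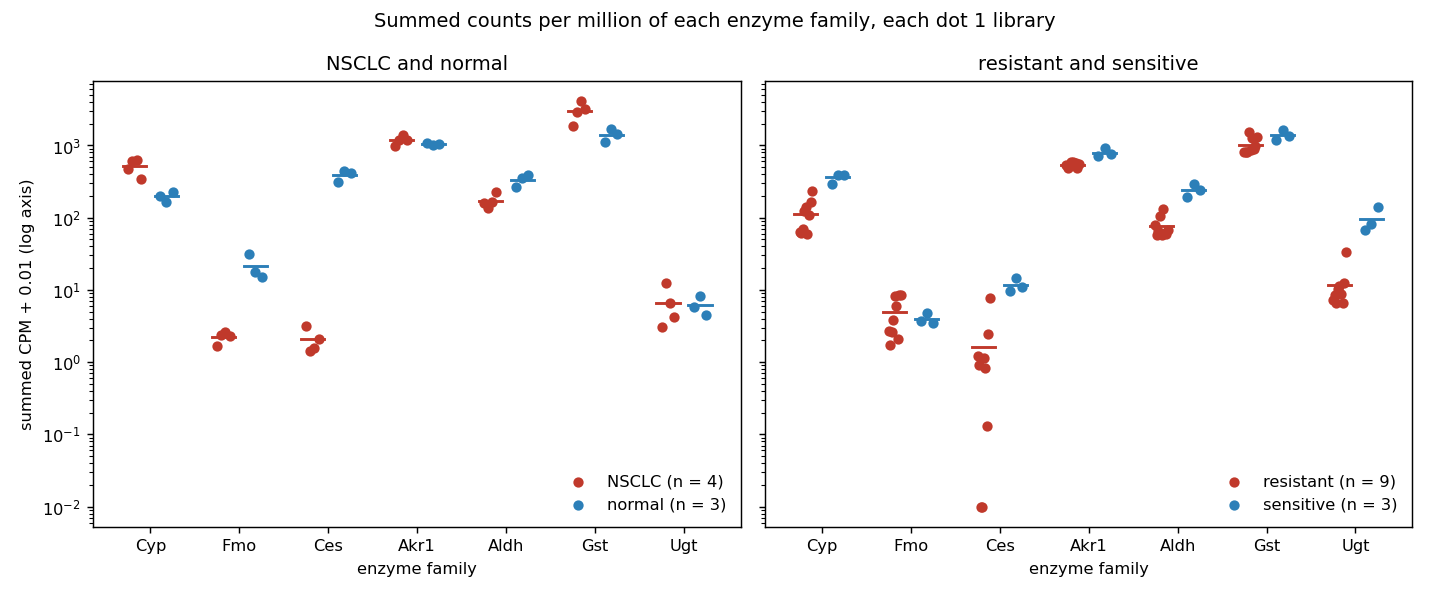
Summed CPM + 0.01 of each enzyme family (vertical log axis) in each library, with NSCLC (red) left of normal (blue) in the left panel and resistant (red) left of sensitive (blue) in the right panel, and bars at the group means. The Ces sums lie at 1.40 to 3.17 CPM in NSCLC and 313.5 to 446 CPM in normal, and the Ugt sums at 6.50 to 33.8 CPM in resistant and 67.2 to 139 CPM in sensitive libraries.

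Resistant organoids had fewer enzyme transcripts than sensitive ones, with a sum over all members of 1781 ± 329 CPM in resistant and 2893 ± 424.5 CPM in sensitive libraries (SD, n = 9 and 3). Akr1c12 and Akr1c13, 3 Aldh1a genes, the 4 theta Gst genes, Gsta3 and Gsta4, 3 Ugt1a genes, Cyp3a13 and 4 Cyp4 genes were among those lower. Only 9 members were higher at the threshold, among them Akr1c14, Aldh3a1, Fmo1 and both pi-class Gst genes. Of the 153 members there 22 had no counts and 66 were tested. Of these 9 were higher and 23 lower, which is 48.5%, where 37.5% of all 14360 genes tested were called, 19.3% higher and 18.2% lower. Groups did not overlap for 33 of the 66, against 31.3% of all genes tested. The median log2 fold change was -1.34 over the tested members and 0.06 over all genes tested. The 87 members not tested had at most 64 counts each over the 12 libraries. Leaving out sensitive library 1, 2 or 3 brought the count of higher members to 4, 4 and 2 and that of lower members to 18, 16 and 17.

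Resistant library 9 held the highest value of its group in 15 of the 23 members that were lower. How often it did so among all genes lower in resistant organoids was not counted, so this is not shown to be particular to the members. Libraries 8 and 9 also had the highest epithelial marker sums of the group, as given above, and the highest club cell marker sums at 53.4 and 71.0 CPM, where libraries 1 to 7 had 0.277 to 2.50 CPM and the sensitive libraries 304 to 534 CPM. Without libraries 8 and 9, 31 members were lower and 7 higher, and 30 of the 32 calls remained. Among all genes 2669 were then lower and 2536 higher, against 2612 and 2768 with all libraries. Xist, a transcript of the inactive X chromosome of female mouse cells, had 433, 805 and 778 counts in resistant libraries 6, 8 and 9 and at most 9 in each other library of that table. Without libraries 6, 8 and 9, 30 were lower and 6 higher, and 28 of the calls remained.

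**Figure D4:**
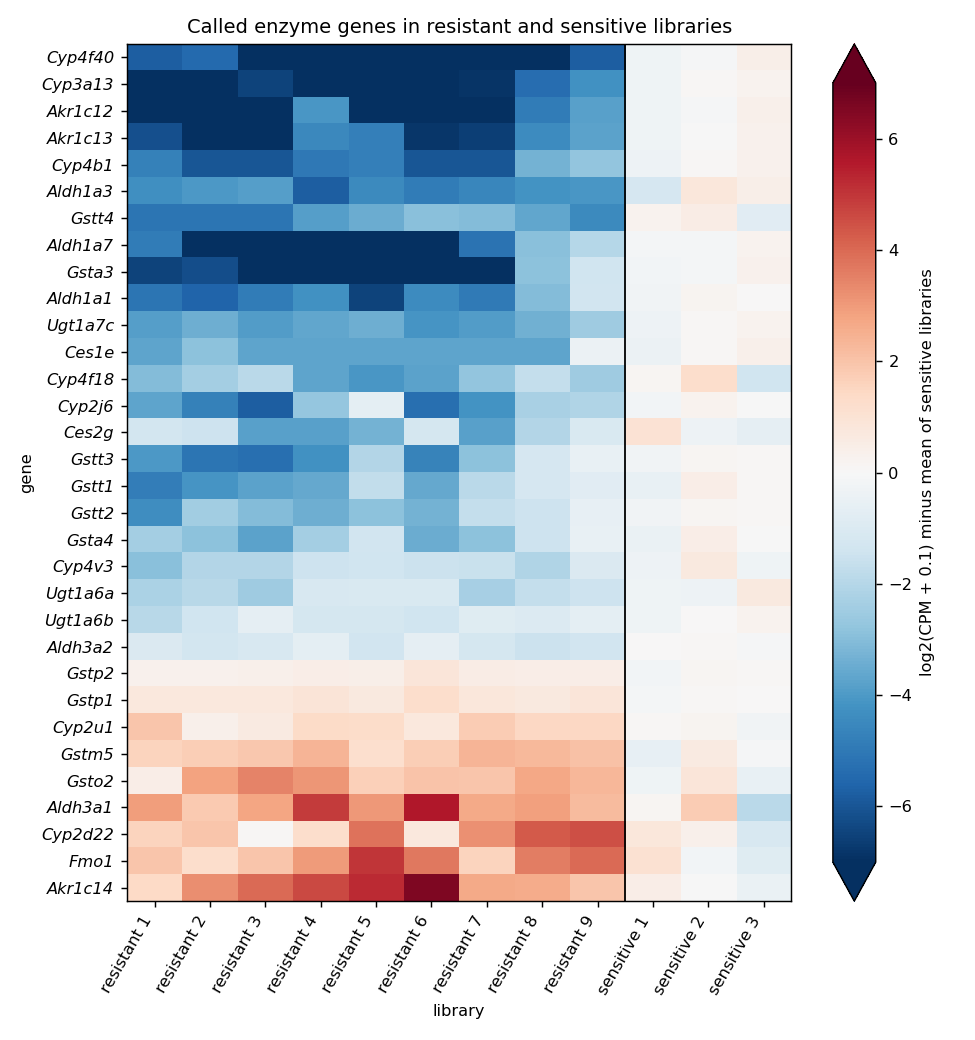
Each called enzyme gene (rows, from the most negative to the most positive log2 fold change) in each resistant library (left of the line) and sensitive library (right of it), coloured by log2(CPM + 0.1) minus the mean of the sensitive libraries, with colours saturated beyond 7 in either direction. Blue is lower and red higher. In the upper rows libraries 8 and 9 are often paler than the other resistant libraries, as for Gsta3, with 25.1 and 70.7 CPM in these and at most 2.45 CPM in the others.

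Among the P450s 6 of 19 tested genes fell in resistant organoids and 2 rose, and their summed level was 113.5 ± 59.0 CPM in resistant and 360.5 ± 54.7 CPM in sensitive libraries. The largest part of the sensitive sum came from Cyp1b1, which was not called. Cyp4f40 ranged from 0 to 0.733 CPM in resistant libraries with a median of 0.0590, against 28.8, 33.5 and 46.9 CPM in the sensitive ones. Groups were far apart (log2 fold change -7.40 ± 0.90, adjusted p = 7.89e-05). Cyp3a13 ranged from 0 to 0.999 CPM in resistant libraries with a median of 0.0462, against 16.5, 21.5 and 24.4 CPM in the sensitive ones (-6.79 ± 0.99, adjusted p = 2.55e-04). Its highest resistant value was in library 9, and without libraries 8 and 9 the log2 fold change was -8.94. Cyp4b1 averaged 0.192 ± 0.294 CPM in resistant and 6.26 ± 1.41 CPM in sensitive libraries (-4.997 ± 0.965, adjusted p = 0.00165).

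The other P450s that fell were Cyp4f18, Cyp2j6 and Cyp4v3, by 3.31, 2.76 and 1.80 on the log2 scale. Cyp2j6 lost its call without any 1 of the sensitive libraries (adjusted p = 0.0575 to 0.0727). Cyp1b1 ranged from 3.45 to 133 CPM in resistant libraries with a median of 37.4, against 146 to 196 CPM in the sensitive ones. Its groups did not overlap, but the test was not passed (-1.92 ± 0.76, adjusted p = 0.0618). Cyp2s1 averaged 6.97 ± 9.21 CPM in resistant and 14.9 ± 8.65 CPM in sensitive libraries and was not called, and neither were Cyp2b10 (adjusted p = 0.131) and Cyp2e1 (0.098). Cyp2u1, a fatty acid hydroxylase, rose by 1.34 ± 0.41 (adjusted p = 0.0222), and it missed the threshold without any 1 sensitive library (0.0566 to 0.0963). Cyp2d22 rose by 3.45 ± 1.29 (adjusted p = 0.0496), and 8 of the 12 fits without 1 library ended that call (each sensitive library, and resistant library 2, 5, 7, 8 or 9; 0.052 to 0.15). Cyp1a1 had 17 counts over the 9 resistant libraries and 0 over the 3 sensitive ones and was not tested.

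Fmo1, a flavin monooxygenase of mouse kidney and liver, ranged from 0.326 to 5.81 CPM in resistant libraries with a median of 1.34, against 0.274, 0.0610 and 0 CPM in the sensitive ones. All resistant libraries were above the sensitive ones (log2 fold change 3.88 ± 1.17, adjusted p = 0.0198). The call was lost without sensitive library 2 or 3 (adjusted p = 0.0804 and 0.0737). Fmo5 averaged 1.93 CPM in resistant and 2.75 CPM in sensitive libraries, and Fmo2 averaged 1.01 and 0.860 CPM, neither called.

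Carboxylesterases were low in that table, at 1.59 ± 2.44 CPM in resistant and 11.6 ± 2.50 CPM in sensitive libraries. Ces1e and Ces2g fell (log2 fold changes -3.50 and -2.598, adjusted p = 0.0371 and 0.0451). The Ces1e call was lost in 9 of the 12 fits without 1 library (all but resistant 1, 5 and 9) and the Ces2g call in 8 of 12 (each sensitive library, and resistant 3, 4, 5, 7 or 8), with adjusted p up to 0.112 and 0.267. Without library 9, which held 91.6% of the summed resistant CPM of Ces1e, the log2 fold change of Ces1e was -6.54. Ces1d had 0 to 5.66 CPM in resistant libraries with a median of 0.119, against 3.67, 9.51 and 6.21 CPM in the sensitive ones. Only library 9 reached the sensitive range, and the gene was not called (-2.80 ± 1.31, adjusted p = 0.108).

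Akr1c12 and Akr1c13, which were far higher in NSCLC than in normal organoids, were far lower in resistant than in sensitive ones. Akr1c12 ranged from 0 to 7.11 CPM in resistant libraries with a median of 0.231, against 81.1, 94.2 and 128 CPM in the sensitive ones. Akr1c13 ranged from 0.531 to 10.8 CPM with a median of 1.94, against 120.2, 143 and 183 CPM. Resistant libraries 4, 8 and 9 were the highest for both genes and still far below all sensitive libraries. The log2 fold changes were -5.71 ± 1.08 (adjusted p = 0.00141) for Akr1c12 and -5.25 ± 0.68 (adjusted p = 1.19e-04) for Akr1c13.

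Akr1c14 again ran against Akr1c12 and Akr1c13. It ranged from 0.509 to 21.3 CPM in resistant libraries with a median of 2.04, against 0.219, 0.122 and 0.0675 CPM in the sensitive ones, and the highest value was that of library 6. All resistant libraries were above all sensitive ones (5.10 ± 1.39, adjusted p = 0.012), and the call was lost without sensitive library 2 (adjusted p = 0.0507) or 3 (0.0547). Akr1c19 was without overlap but not called (-3.52 ± 1.43, adjusted p = 0.0679). Akr1c18, which like Akr1c14 fell in NSCLC, had 0.135 to 5.98 CPM in resistant and 0.244 to 0.603 CPM in sensitive libraries. Akr1c21, which rose in NSCLC, had 0 to 0.777 CPM in resistant and 0.305 to 0.603 CPM in sensitive libraries. Neither Akr1c18 nor Akr1c21 was among the called members in resistant organoids. Akr1a1, at 400.3 ± 37.3 CPM in resistant and 392.7 ± 119 CPM in sensitive libraries, and Akr1b8, at 90.1 ± 22.9 and 90.8 ± 8.92 CPM, were not called, with log2 fold changes of 0.03 ± 0.17 and -0.01 ± 0.23. Akr1b3 had 1 count in the whole table of resistant and sensitive libraries, against 61618 in the table of NSCLC and normal. The tables differ in some gene names, and whether both count this gene alike is not given in the sources used here, so no level is read from that count.

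**Figure D5:**
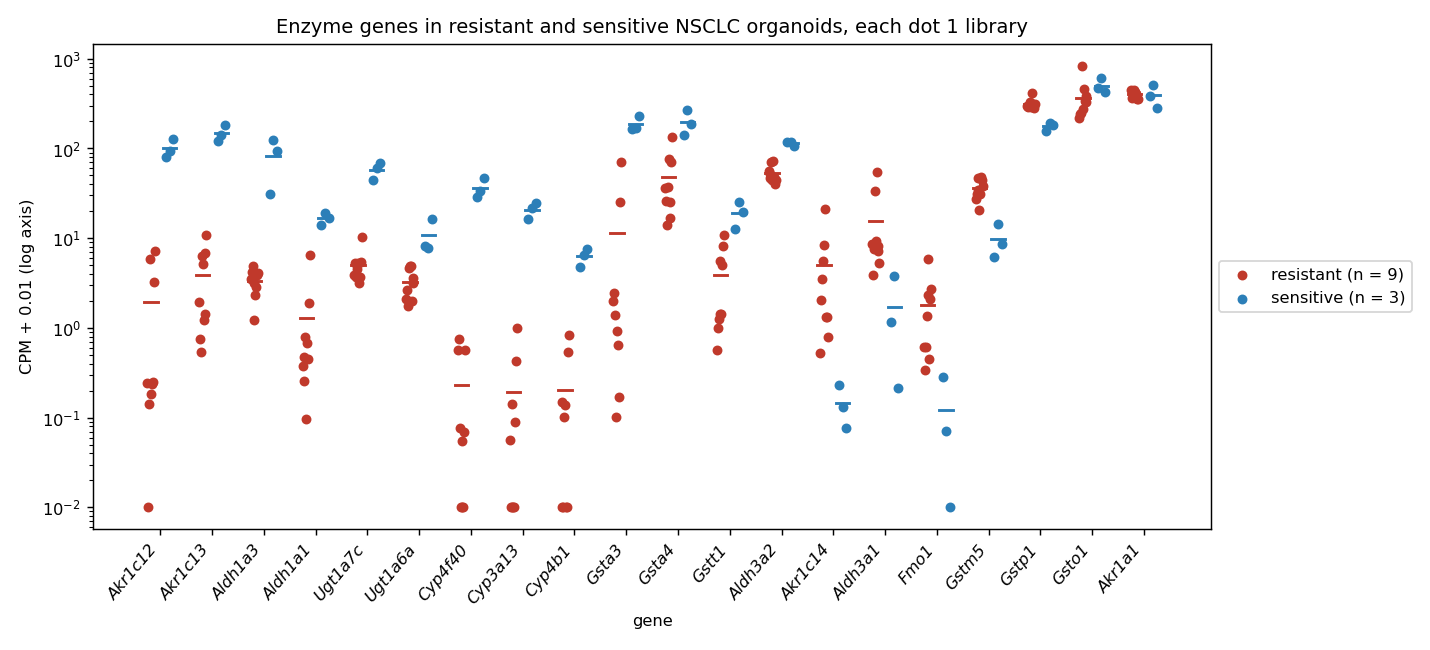
CPM + 0.01 (vertical log axis) of 20 enzyme genes in each of 9 resistant libraries (red, left of each pair) and 3 sensitive libraries (blue, right), with bars at the group means. From Akr1c12 to Aldh3a2 the red points lie below the blue ones, from Akr1c14 to Gstp1 above them, and for Gsto1 and Akr1a1 the groups overlap.

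Among the aldehyde dehydrogenases 4 of 6 fell and 1 rose in resistant organoids, and their sums were 76.5 ± 26.5 CPM in resistant and 242 ± 48.5 CPM in sensitive libraries. Aldh1a3 ranged from 1.20 to 4.84 CPM in resistant libraries with a median of 3.51, against 31.0, 124 and 93.2 CPM in the sensitive ones. It had the smallest adjusted p of all members in that comparison (log2 fold change -4.64 ± 0.37, adjusted p = 5.35e-06). Aldh1a1 averaged 1.28 ± 2.05 CPM in resistant and 16.6 ± 2.64 CPM in sensitive libraries (-3.69 ± 0.86, adjusted p = 0.00515), with its highest resistant value of 6.55 CPM in library 9. Aldh1a7 fell by 4.39 ± 1.22 (adjusted p = 0.0135), and by 6.80 without libraries 8 and 9. Aldh3a2 ranged from 40.4 to 72.2 CPM in resistant and from 105.9 to 118 CPM in sensitive libraries (-1.11 ± 0.18, adjusted p = 4.81e-04). Aldh1a2 averaged 2.87 ± 2.67 CPM in resistant and 7.995 ± 5.40 CPM in sensitive libraries and was not called. Aldh3a1 rose, with 3.91 to 54.98 CPM in resistant libraries and a median of 8.20, against 1.15, 3.78 and 0.202 CPM in the sensitive ones (3.16 ± 1.06, adjusted p = 0.0314). It missed the threshold without sensitive library 1 (adjusted p = 0.116) or 3 (0.105).

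Of the 21 glutathione S-transferases 6 fell and 4 rose in resistant organoids. The 4 theta genes lie together on chromosome 10 and all fell: Gstt4 by 4.54, Gstt3 by 2.41, Gstt1 by 2.30 and Gstt2 by 2.19 on the log2 scale. Gstt1 ranged from 0.555 to 10.7 CPM in resistant libraries with a median of 1.44, against 12.8, 25.2 and 19.4 CPM in the sensitive ones (-2.30 ± 0.71, adjusted p = 0.0222). It missed the threshold without sensitive library 2 or 3 (adjusted p = 0.0891 and 0.0618), and the Gstt3 call without any 1 sensitive library and without resistant library 1, 4 or 7 (0.051 to 0.0959). Gsta4 ranged from 14.1 to 135 CPM with a median of 36.1 in resistant libraries, against 140.0, 266 and 185 CPM in the sensitive ones. Library 9 was close to the lowest sensitive one, and the call (-2.02 ± 0.54, adjusted p = 0.0104) was lost without sensitive library 2 (0.0573). Gsta3 averaged 11.5 ± 23.6 CPM in resistant and 188.5 ± 36.0 CPM in sensitive libraries (-4.04 ± 1.34, adjusted p = 0.0299), and missed the threshold without any 1 sensitive library (0.0606 to 0.0782). Without resistant libraries 8 and 9 the log2 fold change of Gsta3 was -7.50.

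The Gst genes that rose in resistant organoids were Gstp1, Gstp2, Gstm5 and Gsto2. Gstp1 ranged from 281 to 413 CPM in resistant libraries with a median of 298, against 158, 189.8 and 183 CPM in the sensitive ones. Groups were apart and the spread was small (0.82 ± 0.14, adjusted p = 8.54e-04). Gstp2 had 59.2 to 88.7 CPM in resistant and 42.6 to 52.5 CPM in sensitive libraries (0.46 ± 0.15, adjusted p = 0.0282), and missed the threshold without any 1 sensitive library (0.0561 to 0.15) and without resistant libraries 8 and 9 (0.0511). Gstm5 averaged 35.9 ± 9.52 CPM in resistant and 9.70 ± 4.14 CPM in sensitive libraries (1.89 ± 0.32, adjusted p = 7.82e-04). Gsto2 rose by 2.56 ± 0.68 (adjusted p = 0.0106), and it missed the threshold without sensitive library 1 or 3 (0.0542 and 0.0558). Gsto1 averaged 369 ± 188 CPM in resistant and 502 ± 93.5 CPM in sensitive libraries and was not called, and Gstm1 averaged 96.2 ± 37.4 and 104 ± 43.5 CPM and was not called. Per length, Gstp1 came first in resistant organoids at 202 CPM per kilobase and Gsto1 in sensitive ones at 248.

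Of the 4 glucuronosyltransferases tested 3 fell and none rose in resistant organoids, and these were again Ugt1a genes with shared exons. Ugt1a7c ranged from 3.19 to 10.2 CPM in resistant libraries with a median of 4.48, against 45.0, 59.97 and 69.0 CPM in the sensitive ones. The highest resistant value was that of library 9, and groups were far apart (-3.53 ± 0.29, adjusted p = 5.98e-06). Ugt1a6a averaged 3.27 ± 1.27 CPM in resistant and 10.8 ± 4.82 CPM in sensitive libraries (-1.71 ± 0.37, adjusted p = 0.00341), and Ugt1a6b fell by 1.21 ± 0.38 (adjusted p = 0.0223), and missed the threshold without sensitive library 2 or 3 (0.0754 and 0.113). Ugt2b34 had a median of 0 CPM in resistant libraries with 17.7 CPM in library 9, against 10.8, 11.3 and 50.8 CPM in the sensitive ones, and was not called (adjusted p = 0.106).

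Both comparisons called 24 members, which is 46.2% of the 52 called in NSCLC and 75.0% of the 32 called in resistant organoids. The comparisons share no library, and no level was set across the tables. Of the 24, 15 had the same direction in both and 9 had opposite directions. Over all genes with a unique symbol 2852 were called in both, which is 33.2% of those called in NSCLC and 53.0% of those called in resistant organoids, and 1546 of them had the same direction and 1306 opposite ones. Gstp1, Gstp2, Gstm5 and Cyp2u1 were higher in NSCLC and in resistant organoids. Aldh1a3, Akr1c12, Akr1c13, Cyp3a13, Cyp4f40, Gsta4 and Gstt1 were higher in NSCLC and lower in resistant organoids. Akr1c14 and Aldh3a1 were lower in NSCLC and higher in resistant organoids. The 11 others were lower in both: Aldh1a1, Aldh1a7, Gsta3, Gstt2, Ces1e, Ces2g, Cyp2j6, Cyp4v3, Ugt1a6a, Ugt1a6b and Ugt1a7c. In the authors' deposited table of NSCLC and normal, 51 of the 52 calls had the same direction at the same threshold, and in their deposited table of resistant and sensitive 31 of the 32, with 0 of opposite direction in either.

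Genes that sense foreign compounds or serve these enzymes were followed beside them. For the counts below, the share called over all genes tested was 53.5% in NSCLC and 37.5% in resistant organoids. Por, which encodes the reductase that feeds electrons to all microsomal P450s, averaged 703 ± 138 CPM in NSCLC and 265 ± 25.5 CPM in normal (log2 fold change 1.41 ± 0.19, adjusted p = 4.81e-04), and 229 ± 51.4 CPM in resistant and 370.0 ± 52.8 CPM in sensitive libraries (-0.69 ± 0.19, adjusted p = 0.0109). Among 10 genes of electron supply and haem 3 rose and 3 fell in NSCLC, and 1 rose and 2 fell in resistant organoids. Alas1, the first enzyme of haem synthesis, fell in NSCLC (-1.70 ± 0.19, adjusted p = 2.11e-04), and Hmox1, which breaks haem down, rose in both (1.88 ± 0.67, adjusted p = 0.0446; 2.03 ± 0.56, adjusted p = 0.0135). Of the sensors and transcription factors 6 of 15 tested rose and 3 fell in NSCLC, and 2 of 14 rose and 3 fell in resistant organoids. Hnf4a, a factor of liver and gut that acts on many enzyme genes, was higher in NSCLC and lower in resistant organoids. Hnf4a ranged from 75.8 to 384 CPM in NSCLC and from 0.0462 to 0.327 CPM in normal, and from 0 to 18.9 CPM in resistant and from 61.6 to 94.0 CPM in sensitive libraries (10.57 ± 0.89 and -4.15 ± 1.43; adjusted p = 4.34e-05 and 0.0356). The 9-base letters CAAAGTCCA, a site of HNF4 factors, stood in the start windows of 8 members, all of the Cyp2c and Cyp3a groups. This is 5.41% of member windows against 0.475% of all windows, both strands searched. Among them Cyp2c40, Cyp2c67, Cyp2c68 and Cyp2c69 shared 60.3%, 52.8%, 43.3% and 54.3% of their transcript windows with other genes. The others shared from 0.0% (Cyp2c70) to 20.6% (Cyp2c65). Whether their start windows are near copies was not tested, so the 8 matches may not be independent. Control of these genes by HNF4 was not tested. Of these 8 genes Cyp2c65 and Cyp2c70 were tested in NSCLC, at 0.157 and 0.103 CPM in NSCLC and 0.0156 and 0 CPM in normal, neither called. The letters TGACNNNGC, a form of the core bound by NRF2, stood in 7.43% of member windows and 12.4% of all windows. Ahr, the receptor for aromatic hydrocarbons, rose in NSCLC (1.38 ± 0.24, adjusted p = 0.00186), and Nfe2l2, which encodes NRF2, fell in resistant organoids (-0.75 ± 0.18, adjusted p = 0.00648).

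Other conjugating and oxidizing enzymes outside the rule went both ways, with 9 of 26 tested higher and 9 lower in NSCLC, and 3 of 25 higher and 5 lower in resistant organoids. Over all genes tested 53.5% and 37.5% were called in these comparisons. Nqo1, the quinone reductase and a known NRF2 target, had 0.538 to 4.48 CPM in NSCLC and 12.7 to 32.5 CPM in normal (-3.33 ± 0.66, adjusted p = 0.00347). In the other comparison it had 11.7 to 98.9 CPM in resistant and 0.337 to 2.01 CPM in sensitive libraries (4.94 ± 0.83, adjusted p = 6.51e-04), the same pair of directions as Akr1c14 and Aldh3a1. Genes of cofactor supply were higher in NSCLC for 4 of 12 and lower for 0, and higher in resistant organoids for 1 and lower for 4. Ugdh, which makes the glucuronic acid donor, averaged 303 ± 172 CPM in NSCLC and 28.6 ± 4.99 CPM in normal (3.41 ± 0.54, adjusted p = 0.00115). Slc7a11, the cystine importer for glutathione synthesis, averaged 327.5 ± 140 CPM in resistant and 1505 ± 395 CPM in sensitive libraries (-2.20 ± 0.33, adjusted p = 3.12e-04). Of 17 drug transporters tested 9 rose and 4 fell in NSCLC, and 2 rose and 9 fell in resistant organoids. Abcc1, an exporter of glutathione conjugates, rose in both (1.17 ± 0.21, adjusted p = 0.00191; 1.06 ± 0.23, adjusted p = 0.00329). Abcc3, an exporter of glucuronides, rose in NSCLC (0.73 ± 0.20, adjusted p = 0.0139) and fell in resistant organoids (-3.13 ± 0.73, adjusted p = 0.00508).

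In the retinoic acid pathway around the Aldh1a genes 7 of 13 tested genes were higher and 1 lower in NSCLC, where 53.5% of all genes were called, and 3 of 15 were higher and 4 lower in resistant organoids, where 37.5% were. Rdh10, which makes the retinal that Aldh1a enzymes use, averaged 28.0 ± 10.2 CPM in resistant and 211 ± 38.1 CPM in sensitive libraries (-2.92 ± 0.27, adjusted p = 1.29e-05). Crabp2, which carries retinoic acid to its receptor, ranged from 23.9 to 110.4 CPM in resistant and from 0.122 to 0.548 CPM in sensitive libraries (7.45 ± 0.74, adjusted p = 1.93e-05). Crabp1, a related carrier, ranged from 5.54 to 161 CPM in resistant libraries and had 0 counts in the sensitive ones. In NSCLC the retinol carrier gene Rbp4 rose by 4.10 ± 0.28 (adjusted p = 1.62e-05). Across these lists the median log2 fold change lay between 0.02 and 0.85 in NSCLC, where that of all genes tested was 0.11, and between -0.63 and 0.15 in resistant organoids, where that of all genes was 0.06.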

How the data were processed

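Bulk RNA was sequenced as paired reads after a stranded mRNA kit, per the labels' protocols. The authors deposited 2 tables of raw counts per gene, 1 for each comparison, with log2 fold changes and adjusted p-values from their own tests. STAR 2.6.0a, DESeq2 1.26.0 and the build mm10 are named in the submitters' processing notes, while for the counter and the annotation nothing is given in the sources used here. The members and lists were chosen with earlier results of these data known. Each table was analysed alone, and 19 other columns of per-library values were not used. Rows without a symbol (27077 in the NSCLC table, 2 of which would meet the rule by identifier) entered the tests but not the members.

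Counts were filtered with filterByExpr (minimum count 10), scaled by TMM and tested with edgeR 4.0.16 (R 4.3.3) by the quasi-likelihood test, with Benjamini-Hochberg adjustment over all genes tested, a threshold of 0.05 and a standard error of the log2 fold change divided by the root of F. CPM is a count per 1000000 of the TMM-scaled library total. On simulated counts with a log2 change of 2 the test recovered 59.1% of 193 changed genes for NSCLC against normal and 60.2% of 191 for resistant against sensitive, and 7.32% and 4.17% of calls were false. Libraries with fewer counts give less precise values for genes near 0. No pair of libraries in a group agreed within sampling noise. Resistant libraries were not equally distant, by a chi-squared statistic per gene that is smaller for closer pairs. It was 19.49 for libraries 2 and 3 and 26.94 for 8 and 9, against 63.86 to 218.8 for the other resistant pairs. The labels do not say whether such libraries share a mouse or culture, and the tests treated all 9 as independent.

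Named in the text were a fixed set of enzymes, up to 2 called members per family and direction with the smallest adjusted p and a mean CPM of at least 1, and the member of each family with the highest mean CPM. Any other gene was named after its values were seen. Some genes counted in the accompanying lists are not reported here by name. Alternatives were RLE and upper quartile scaling, DESeq2 1.42.0, 2 other filters, a replicate block, thinning, and libraries left out. Promoter windows are from RefSeq (GRCm38.p6), and 130 of 156 members matched one.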

Additional observations from a re-analysis of the deposited data

Results flagged for a closer look

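For these genes 1 library lay far from the others of its group, by a gap that chance gives in about 1 of 20 groups of normally distributed values. CPM near 0 are not so distributed, and the number of genes screened is not given here, so the flags are descriptive only. For 7 of the 16 genes the library was resistant library 9, which was the highest, and its value is given here with that of the next resistant library. Cyp2s1 had 28.7 CPM there and 13.6 CPM in the next, Aldh1a1 6.55 and 1.89 CPM, Ugt1a7c 10.2 and 5.42 CPM, and Cyp3a13 0.999 and 0.413 CPM. Ces1d had 5.66 and 1.95 CPM, Ces1e 0.888 and 0.0815 CPM, and Cyp2b10 2.44 and 0.708 CPM. Library 9 also had the highest sums of epithelial and club cell markers among resistant libraries, and the part of this in the values was not tested.

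Resistant library 6 was the highest for Akr1c14 at 21.3 CPM, where the next library had 8.35 CPM, for Gstp1 at 413 CPM, where the next had 328 CPM, and for Fmo5 at 3.55 CPM, where the next had 2.36 CPM. Fmo1 reached 5.81 CPM in resistant library 5, against 2.72 CPM in the next. Aldh1a2 reached 9.48 CPM in resistant library 1, against 3.32 CPM in the next. Cyp2e1 had 1.62 CPM in resistant library 1 and 0 in all other resistant libraries. Gsto1 had 829 CPM in resistant library 4, against 456 CPM in the next. Among NSCLC libraries, number 4 was the lowest for Gstm5 at 17.3 CPM, where the next had 24.6 CPM, and the highest for Aldh3a1 at 3.24 CPM, where the next had 1.25 CPM.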

How the results depend on the processing

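No called member changed direction under any of the alternatives run. Of the 52 calls in NSCLC, 34 held under every alternative run there, and of the 32 in resistant organoids 16 did. With no filter on low counts 43 members were lower in resistant organoids, against 23 with the filter. Leaving out 1 library each gave 2 to 9 members higher in resistant organoids and 1765 to 2867 genes higher among all tested, lowest without sensitive library 3 for both. With the replicate number as a block, 3 members were higher and 31 lower in resistant organoids, and 23 higher and 24 lower in NSCLC, while among all genes 1983 were higher and 2287 lower in resistant organoids (2768 and 2612 without the block), and 4728 higher and 4211 lower in NSCLC (5672 and 4983). Deviations of same-numbered libraries from their group means had correlations of -0.0147, -0.0153 and -0.0419 in NSCLC and normal. In resistant and sensitive they were 0.207, 0.155 and -0.12. The labels do not say that these libraries are paired, and with 3 numbers per comparison a shared batch cannot be told from these values. Upper quartile scaling moved the median log2 fold change of all genes in NSCLC to -0.08, against 0.11 under TMM.

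Among the genes named, only some that were not called changed sign, and the cause was not tested. Akr1a1 in NSCLC was -0.037 under upper quartile scaling, and Fmo1 in NSCLC 0.087 under the block and between -0.66 and 1.14 with 1 library left out. In resistant organoids Akr1b8 was 0.032 under upper quartile scaling, 0.037 with 10 counts required in every library of a group, and between -0.078 and 0.07 with 1 library left out. Gstm1 there was 0.097 under the block and between -0.33 and 0.26 with 1 library left out, and Akr1a1 there between -0.17 and 0.28. At these depths 75 and 87 members were too low to test in NSCLC and resistant organoids, with at most 130 and 64 counts each.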
